A study of Mus musculus with 15 samples.

Results

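The basal and luminal lineage keratins described here are 7 genes. Krt5, Krt14 and Krt15 are keratins of the basal lineage, and Krt7, Krt8, Krt18 and Krt19 are keratins of the luminal lineage. Their rows were taken by exact symbol from the 54456 genes of the deposited count table. The 7 were chosen with earlier results of these data known. All 7 were among the 18140 genes that passed the filter on low counts. The study asked whether mammary epithelium undergoes an epithelial-mesenchymal transition while it migrates as a group. All 15 libraries came from wild-type (WT) mouse mammary gland epithelial organoids in DMEM/F12 with an ITS supplement, and the labels give no strain or age. One group of 3 libraries was taken at 0 h, and 4 groups of 3 were taken 36 h and 72 h into culture next to beads that had been soaked in FGF10 (fibroblast growth factor 10) or in BSA (bovine serum albumin, the control protein). Nothing in the labels says that the libraries of a group came from separate cultures, so p-values measure the spread between these libraries, which may be partly technical. The BSA 72 h libraries are numbered 2_1, 2_2 and 3, and the first 2 were the closest pair of any group. Their counts differed beyond counting noise (average chi-square 4.6 for each of 17121 genes), and they were kept as 2 libraries. This difference cannot show that they came from separate cultures. With the 2 summed, edgeR called 277 genes instead of 1087 for FGF10 against BSA at 72 h.

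Keratins are the intermediate filament proteins of epithelia, and a filament is built from pairs of a type I (acidic) and a type II (basic) keratin. Krt5 (type II) and Krt14 (type I) form the filaments of basal and myoepithelial cells, which line the outside of the mammary duct, while Krt8 (type II) and Krt18 (type I) form those of the luminal cells that face the lumen. Krt7 (type II) and Krt19 (type I) accompany Krt8 and Krt18 in simple and ductal epithelium, and Krt15 (type I) marks basal cells of stratified epithelia, often without a set partner of its own. Mouse keratin genes lie in 2 clusters, 1 for each type, except that Krt18 lies beside Krt8 among the type II genes.

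In the deposited table, on the mouse assembly GRCm39, the type I genes Krt15 (11:100022584-100026754), Krt19 (11:100031636-100039491) and Krt14 (11:100093988-100098374) lay on the minus strand of chromosome 11. Krt7 (15:101308924-101328194, plus strand), Krt5 (15:101615505-101621333, minus), Krt8 (15:101905133-101912917, minus) and Krt18 (15:101936615-101940462, plus) lay on chromosome 15. Counts covered the annotated exons of each gene.

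RefSeq promoter windows (assembly GRCm38.p6) matched 5 of the 7 keratins by symbol, and 4 of them lay at the 5′ end of the gene. They are shown to set the promoters of 3 luminal keratins beside that of the basal keratin Krt5. Each is the 250 bases before the start, 5′ to 3′ on the gene's strand, with capitals for the E-box CAGGTG, read on either strand and so also as CACCTG.
Krt5 (15:101712906-101713155, minus): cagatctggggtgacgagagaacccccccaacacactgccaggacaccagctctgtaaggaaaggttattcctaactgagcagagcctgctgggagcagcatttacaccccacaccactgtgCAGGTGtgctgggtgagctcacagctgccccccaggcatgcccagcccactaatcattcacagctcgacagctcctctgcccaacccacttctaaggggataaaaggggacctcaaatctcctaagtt
Krt7 (15:101412153-101412402, plus): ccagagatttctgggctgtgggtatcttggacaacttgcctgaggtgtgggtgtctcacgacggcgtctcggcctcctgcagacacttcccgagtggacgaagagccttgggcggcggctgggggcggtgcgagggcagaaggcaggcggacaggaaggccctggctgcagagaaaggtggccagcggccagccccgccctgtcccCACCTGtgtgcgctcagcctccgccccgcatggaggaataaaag
Krt8 (15:102004343-102004592, minus): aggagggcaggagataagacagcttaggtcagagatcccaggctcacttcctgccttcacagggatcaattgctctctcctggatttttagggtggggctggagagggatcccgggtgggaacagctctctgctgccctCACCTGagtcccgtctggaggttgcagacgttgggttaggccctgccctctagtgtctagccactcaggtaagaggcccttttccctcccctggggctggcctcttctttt
Krt18 (15:102027966-102028215, plus): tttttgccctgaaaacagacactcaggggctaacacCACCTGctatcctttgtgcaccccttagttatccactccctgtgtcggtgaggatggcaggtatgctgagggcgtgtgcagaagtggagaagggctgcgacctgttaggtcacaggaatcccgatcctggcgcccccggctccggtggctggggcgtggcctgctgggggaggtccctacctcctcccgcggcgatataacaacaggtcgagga

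The 4 windows held 1 such E-box each, ending 123, 39, 106 and 209 bases before the start of Krt5, Krt7, Krt8 and Krt18. Of all 32851 windows of that length, 17.2% held it. The AP-2 motif GCCNNNGGC was found 2 times before Krt7 and 1 time before Krt18 (13.7% of all windows hold it), and the GC box GGGCGG 4 times before Krt7 (32.7%), where 1 GC box overlaps an AP-2 match. On either strand, TATAAA (12.4%) and the AP-1 motif TGANTCA (6.75%) were in none of the 4. These are matches of letters in this window and say nothing of binding.

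Depth ran from 11965322 to 24261233 assigned fragments a library. Levels between libraries are given as CPM, the counts divided by the TMM-scaled library size. The 7 keratins took 1.77% to 3.51% of all counts in a library and 90.4% to 98.9% of the counts of all 54 keratin rows. Markers of the labelled tissue were present: Epcam, an adhesion protein of epithelial cells, stood at 3464 ± 529.7 CPM at 0 h (SD, n = 3), and each of the 20 basal and 22 luminal genes listed beside the keratins had counts in every group. The organoids also carried RNA of other cells, with a sum over 18 immune genes of 2127 to 2527 CPM at 0 h and 312 to 869.5 CPM in later libraries. In bulk RNA, fewer cells of a type and less RNA per cell cannot be told apart.

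**Figure D1:**
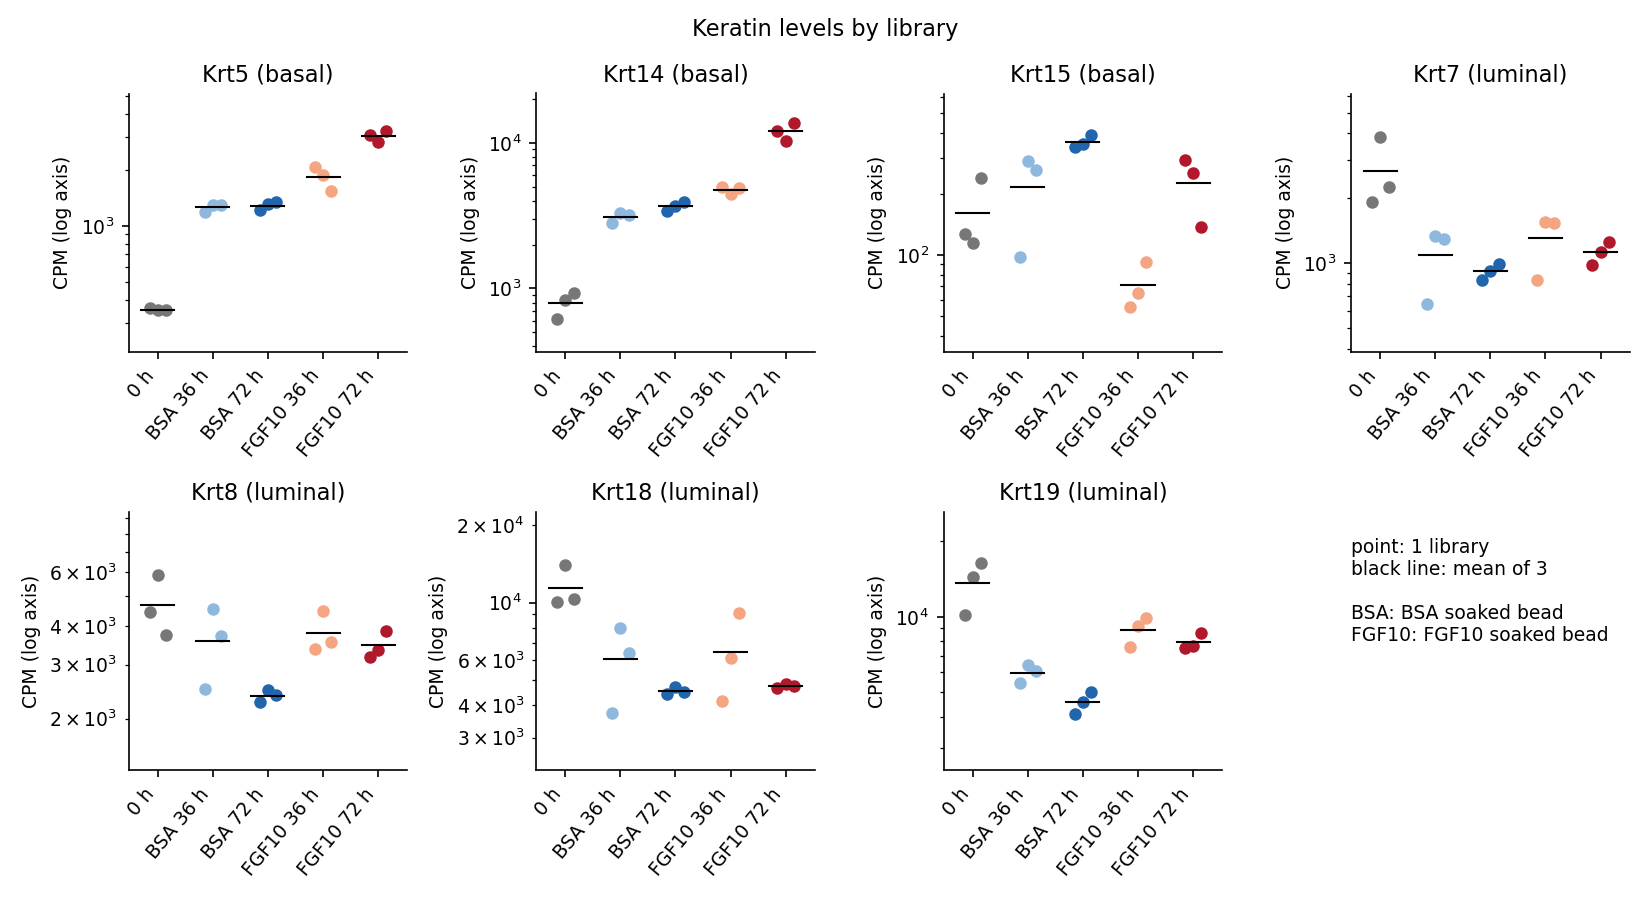
Level of each keratin in CPM (log axis) in the 15 libraries, by group; points are libraries and black lines are means of 3. Krt5 and Krt14 sit lowest at 0 h and highest at FGF10 72 h, both apart from all other groups, Krt15 sits lowest at FGF10 36 h, and Krt7, Krt18 and Krt19 sit highest at 0 h.

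The basal pair Krt5 and Krt14 rose in every later group against 0 h and rose further beside FGF10, to 8.61-fold and 15.1-fold above 0 h at 72 h. The other basal keratin, Krt15, did not follow them. The luminal keratins Krt7, Krt18 and Krt19 fell against 0 h in every later group, and Krt8 passed the test only in BSA 72 h against 0 h. Against BSA at 72 h, 3 keratins were higher beside FGF10, namely Krt5, Krt14 and Krt19. At that time edgeR called none lower, also at an unadjusted p under 0.05. At 36 h edgeR called none of the 7. With an unadjusted p under 0.05, Krt15 was lower there and Krt5, Krt14 and Krt19 were higher, beside 3398 of all 18140 tested genes.

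Krt5 gives basal cells the type II chain of their filaments. Its level was 361, 349.8 and 349.6 CPM at 0 h, 1189, 1302 and 1297 CPM in BSA 36 h and 1213, 1308 and 1337 CPM in BSA 72 h, in the order of the library numbers. Beside FGF10 it was 2078, 1877 and 1542 CPM at 36 h and 3068, 2833 and 3230 CPM at 72 h. The groups did not overlap except for the 2 BSA groups, which lay within the same range. Against 0 h, Krt5 was 3.57-fold higher in BSA 36 h (log2 difference 1.84 ± 0.15 SE, adjusted p = 1.36e-06) and 3.64-fold higher in BSA 72 h (1.86 ± 0.15, adjusted p = 1.02e-06). The rise against 0 h was 5.18-fold in FGF10 36 h (2.37 ± 0.15, adjusted p = 1.3e-07) and 8.61-fold in FGF10 72 h (3.11 ± 0.16, adjusted p = 1.84e-08).

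Krt14 is the type I partner of Krt5. Its level was 615, 832 and 932 CPM at 0 h, 2806, 3274 and 3207 CPM in BSA 36 h and 3392, 3691 and 3917 CPM in BSA 72 h. With FGF10 it reached 4970, 4432 and 4914 CPM at 36 h and 11960, 10290 and 13620 CPM at 72 h. The 5 groups formed 5 separate ranges. The rise against 0 h was 3.90-fold in BSA 36 h (log2 difference 1.96 ± 0.19 SE, adjusted p = 4.93e-06), 4.62-fold in BSA 72 h (2.21 ± 0.19, adjusted p = 2.06e-06), 6.02-fold in FGF10 36 h (2.59 ± 0.20, adjusted p = 5.46e-07) and 15.1-fold in FGF10 72 h (3.92 ± 0.21, adjusted p = 2.68e-08).

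Krt15 is a basal keratin of lower level. It stood at 126, 115 and 240.5 CPM at 0 h, at 98.0, 290 and 264 CPM in BSA 36 h and at 343, 352 and 392 CPM in BSA 72 h. With FGF10 it stood at 55.6, 65.1 and 92.0 CPM at 36 h and at 293, 253 and 138 CPM at 72 h. Every FGF10 36 h library was below every library of the other groups, and every BSA 72 h library was above all of them, while the other 3 groups overlapped. Krt15 fell 2.27-fold from 0 h to FGF10 36 h (log2 difference -1.18 ± 0.40 SE, adjusted p = 0.0344) and rose 2.25-fold from 0 h to BSA 72 h (1.17 ± 0.40, adjusted p = 0.0491). Neither call was firm. The fall missed the threshold when 0 h library 4 (adjusted p = 0.156) or one of the FGF10 36 h libraries 1 (0.107) and 3 (0.0959) was left out, and the rise missed it in 14 of 25 alternatives, among them leaving out any 1 of 11 libraries (adjusted p = 0.0538 to 0.15). The difference from 0 h was 0.44 ± 0.40 in BSA 36 h (adjusted p = 0.453) and 0.50 ± 0.40 in FGF10 72 h (adjusted p = 0.372).

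Krt18, the type I chain of the luminal filament, stood at 10010, 14010 and 10280 CPM at 0 h. It was 3747, 7983 and 6395 CPM in BSA 36 h and 4416, 4704 and 4512 CPM in BSA 72 h, and 4154, 6094 and 9144 CPM in FGF10 36 h and 4662, 4828 and 4761 CPM in FGF10 72 h. All 12 later libraries were below all 3 libraries at 0 h, and the 2 groups at 36 h spread widely while the 2 at 72 h were narrow. Krt18 fell 1.89-fold in BSA 36 h (log2 difference -0.92 ± 0.29 SE, adjusted p = 0.0281), 2.52-fold in BSA 72 h (-1.33 ± 0.29, adjusted p = 0.00366), 1.77-fold in FGF10 36 h (-0.82 ± 0.29, adjusted p = 0.0346) and 2.41-fold in FGF10 72 h (-1.27 ± 0.29, adjusted p = 0.00429). At 36 h the calls depended on single libraries: that of BSA was lost when 0 h library 2 (adjusted p = 0.109) or one of the BSA 36 h libraries 1 (0.0998) and 3 (0.0658) was left out, and that of FGF10 when 0 h library 2 (0.13) or one of the FGF10 36 h libraries 1 (0.131) and 3 (0.0809) was.

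Krt8 pairs with Krt18. Its level was 4444, 5884 and 3734 CPM at 0 h, 2489, 4548 and 3713 CPM in BSA 36 h and 2266, 2477 and 2389 CPM in BSA 72 h. With FGF10 it was 3363, 4469 and 3563 CPM at 36 h and 3179, 3357 and 3850 CPM at 72 h. The BSA 72 h libraries were below those of every other group, and the other 4 groups overlapped. Krt8 fell 1.97-fold from 0 h to BSA 72 h (log2 difference -0.98 ± 0.23 SE, adjusted p = 0.00551). The other differences from 0 h did not pass the test, at -0.39 ± 0.23 in BSA 36 h (adjusted p = 0.225), -0.30 ± 0.23 in FGF10 36 h (0.304) and -0.44 ± 0.23 in FGF10 72 h (0.163).

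Krt19 is a short type I keratin of ductal cells. It stood at 10130, 14440 and 16340 CPM at 0 h, 5449, 6405 and 6103 CPM in BSA 36 h and 4084, 4579 and 5030 CPM in BSA 72 h. With FGF10 it stood at 7559, 9189 and 9847 CPM at 36 h and 7500, 7617 and 8604 CPM at 72 h. The 0 h libraries were the highest, the FGF10 libraries of both times came next, and those of BSA 36 h and BSA 72 h were lower in that order. Krt19 fell 2.28-fold in BSA 36 h (log2 difference -1.19 ± 0.20 SE, adjusted p = 0.000627), 2.99-fold in BSA 72 h (-1.58 ± 0.21, adjusted p = 6.48e-05), 1.54-fold in FGF10 36 h (-0.62 ± 0.20, adjusted p = 0.0238) and 1.73-fold in FGF10 72 h (-0.79 ± 0.20, adjusted p = 0.00854). For FGF10 36 h the call did not hold when one of the 0 h libraries 2 (adjusted p = 0.0706) and 4 (0.106) or FGF10 36 h library 1 (0.0893) was left out.

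Krt7, the second luminal type II keratin, stood at 1922, 3833 and 2251 CPM at 0 h. It was 648, 1340 and 1294 CPM in BSA 36 h and 836, 923 and 992 CPM in BSA 72 h, and 835.5, 1551 and 1534 CPM in FGF10 36 h and 984, 1129 and 1259 CPM in FGF10 72 h. All later libraries were below 0 h, and the 4 later groups overlapped. Krt7 fell 2.44-fold in BSA 36 h (log2 difference -1.29 ± 0.31 SE, adjusted p = 0.00679), 2.91-fold in BSA 72 h (-1.54 ± 0.31, adjusted p = 0.00227), 2.04-fold in FGF10 36 h (-1.03 ± 0.31, adjusted p = 0.0166) and 2.37-fold in FGF10 72 h (-1.25 ± 0.31, adjusted p = 0.0073). Leaving out 0 h library 2 (adjusted p = 0.102) or FGF10 36 h library 1 (0.065) ended the call for FGF10 36 h. A fit of only the groups compared ended it too (0.082).

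Against 0 h, then, 2 basal keratins rose and 3 luminal keratins fell in BSA 36 h, where 27.1% of all tested genes were called. In BSA 72 h 3 basal keratins rose and 4 luminal keratins fell (25.2% of all genes called). In FGF10 36 h 2 basal keratins rose, while 3 luminal keratins and the basal Krt15 fell (39.8%). In FGF10 72 h 2 basal keratins rose and 3 luminal keratins fell (29.9%). The 4 comparisons share the 0 h libraries, so they are not independent of each other. The median log2 difference of the 3 basal keratins ran from 1.84 to 3.11 over the 4 comparisons and that of the 4 luminal keratins from -0.72 to -1.44, beside medians over all genes of -0.02 to 0.01. The basal median does not show Krt15, which ran from -1.18 to 1.17. Genes of other cells moved in the same comparisons. In FGF10 72 h 10 of 13 tested immune, 13 of 19 endothelial and 10 of 16 fibroblast and stromal genes fell against 0 h, in FGF10 36 h 10, 17 and 12, and in BSA 36 h 10, 10 and 9. In BSA 72 h 6 immune genes fell and 2 rose, 3 endothelial and 5 stromal genes fell, and 6 of 10 tested adipocyte genes rose. The part of such cells in the keratin differences was not tested.

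**Figure D2:**
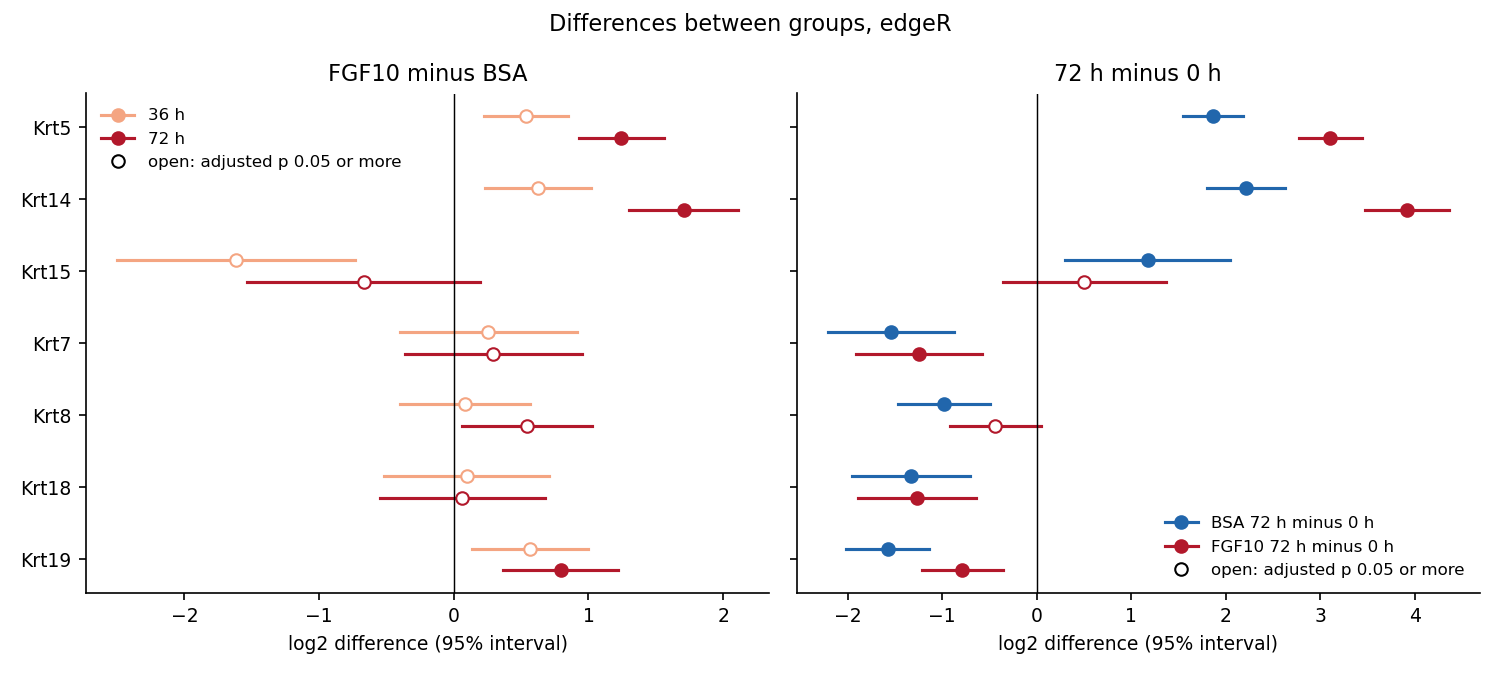
Log2 difference of each keratin with its 95% interval, for FGF10 minus BSA at 36 h and 72 h and for each 72 h group minus 0 h; filled points passed an adjusted p of 0.05. At 72 h the FGF10 minus BSA difference passed for Krt5 (1.24), Krt14 (1.71) and Krt19 (0.79), and the interval of Krt18 (0.06) covers 0.

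Beside FGF10 at 72 h, Krt5 was 2.37-fold higher than with BSA (log2 difference 1.24 ± 0.15 SE, adjusted p = 0.00061) and Krt14 3.26-fold higher (1.71 ± 0.19, adjusted p = 0.000593). Krt19 was 1.73-fold higher (0.79 ± 0.20, adjusted p = 0.0336). These are 3 of 7 keratins in a comparison where 5.99% of all tested genes were called. The calls of Krt5 and Krt14 held in all 26 alternatives, with adjusted p of at most 0.00938 and 0.00792. That of Krt19 was lost in 7. Leaving out any 1 of the 6 libraries compared gave an adjusted p of 0.0689 to 0.155. Summing BSA 72 h libraries 2_1 and 2_2 gave 0.122, so the call also rests on keeping these as 2 libraries. Krt8 was 1.46-fold higher with no overlap (0.54 ± 0.23, adjusted p = 0.161), and Krt15 was 1.59-fold lower with no overlap (-0.67 ± 0.40, adjusted p = 0.34), but neither passed. The share of all genes without overlap was not counted. Krt8 did pass with only these groups in the fit (adjusted p = 0.00267) and by limma voom (0.0137). These settings called 5025 of 16881 and 4911 of 18140 tested genes. The 95% interval was -0.36 to 0.95 for Krt7 and -0.55 to 0.68 for Krt18.

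At the same comparison, RNA of non-epithelial cells differed. The sum over 12 adipocyte genes was 431.5 to 438 CPM in BSA 72 h and 13.4 to 77.6 CPM in FGF10 72 h, that over 20 endothelial genes was 149.9 to 361 CPM and 25.7 to 52.6 CPM, that over 16 fibroblast and stromal genes was 736.5 to 915 CPM and 238 to 508 CPM, and that over 18 immune genes was 652 to 869.5 CPM and 353 to 559 CPM. Of the tested members, 5 of 10 adipocyte, 3 of 19 endothelial, 1 of 16 stromal and 10 of 13 immune genes fell. Of all 18140 tested genes, 5.99% were called and 541 fell, so the single stromal call does not stand out. No adipocyte, endothelial or stromal marker was without counts in either group, while 2 of the 18 immune markers had none with BSA and 3 had none with FGF10. Mitochondrial transcripts made up 2.21% to 2.60% of counts with BSA and 3.90% to 4.55% with FGF10. The part of these differences in the keratin result was not tested.

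At 36 h none of the 7 keratins passed the test for FGF10 against BSA, where edgeR called 2.34% of all genes. At an unadjusted p under 0.05 there were 4 keratins, beside 3398 of all 18140 tested genes. Limma voom with sample weights called 3 keratins and 1460 genes in all, and the DESeq2 Wald test called 4 and 1088. The groups did not overlap for Krt5 (1.45-fold, log2 difference 0.54 ± 0.15 SE, adjusted p = 0.0685), Krt14 (1.54-fold, 0.62 ± 0.19, adjusted p = 0.0897), Krt19 (1.48-fold, 0.57 ± 0.20, adjusted p = 0.143) and Krt15 (-1.62 ± 0.41, adjusted p = 0.0593), and they overlapped for the other 3. How many of all tested genes also had no overlap was not counted, so the separation alone does not set these keratins apart. Single libraries moved these values over the threshold: leaving out FGF10 36 h library 4 gave Krt5 an adjusted p of 0.0108, and leaving out 0 h library 1 gave Krt14 one of 0.0475. For Krt15 it was 0.00819 when BSA 36 h library 1 was left out, 0.045 and 0.0417 for the 0 h libraries 1 and 4, and 0.0457 for FGF10 72 h library 4. Over all alternatives the adjusted p ran from 6.88e-05 to 0.344 for Krt5, from 0.00484 to 0.298 for Krt14 and from 0.00185 to 0.194 for Krt15. FGF10 36 h library 4 had the lowest mitochondrial share of the study, 1.11%.

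The change of the FGF10 effect from 36 h to 72 h was tested in the same fit and passed for no gene at all (0% of all genes called; 998 genes had an unadjusted p under 0.05). Among the keratins, 2 had an unadjusted p under 0.05, namely Krt14 (log2 change 1.08 ± 0.26 SE, edgeR adjusted p = 0.663) and Krt5 (0.71 ± 0.21, adjusted p = 0.753). The DESeq2 Wald test called these 2 (adjusted p = 0.0202 and 0.0255) among 18 genes in all, and limma voom called none. A larger FGF10 effect at 72 h than at 36 h was thus not shown by edgeR for any keratin. Over time within the FGF10 arm, Krt14 rose 2.51-fold from 36 h to 72 h (1.33 ± 0.19, adjusted p = 0.00267) and Krt5 1.66-fold (0.73 ± 0.15, adjusted p = 0.018), in a comparison with 1.91% of genes called. Leaving out any of the FGF10 72 h libraries 2, 3 and 4 ended the call of Krt5 (adjusted p = 0.0779, 0.0552 and 0.0666). So did a fit of only these groups (0.171). Krt15 was 3.21-fold higher at 72 h (1.68 ± 0.41, adjusted p = 0.0595), and it passed in 7 of 26 alternatives. These were leaving out 0 h library 4 (0.0377), BSA 36 h library 1 (0.0129) or FGF10 72 h library 4 (0.0402). The others were DESeq2 (0.00102), limma voom (0.00388), no 0 h libraries (0.0334) and only these groups in the fit (0.0468). Within the BSA arm edgeR called none of the 7 between 36 h and 72 h, and 0.469% of all genes. Only Krt8 had an unadjusted p under 0.05 (-0.59 ± 0.23, adjusted p = 0.219), beside 2904 of all 18140 tested genes. Limma voom called 2 keratins and 2683 genes in all, and DESeq2 called 0 and 584.

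Levels of different genes can be compared only per length. Here counts were divided by the exon length in the table and scaled to one common total a library, the unit TPM. At 0 h the order was Krt18 (14190 ± 2015 TPM, SD, n = 3), Krt19 (13250 ± 3530), Krt8 (4259 ± 726), Krt14 (813 ± 193.5), Krt7 (672 ± 220), Krt5 (289 ± 18.6) and Krt15 (166 ± 82.2). Krt18 and Krt19 did not differ beyond their spread, nor did Krt14 and Krt7. At FGF10 72 h the order was Krt14 (11910 ± 2009 TPM), Krt19 (7455 ± 840), Krt18 (5772 ± 250), Krt8 (3094 ± 422), Krt5 (2421 ± 226), Krt7 (279 ± 43.5) and Krt15 (223 ± 73.0), and among neighbours only Krt7 and Krt15 overlapped. In BSA 72 h Krt14 came after Krt18 and Krt19 (4526 ± 332 TPM), overlapping the latter (5340 ± 565.5) and below the former (6860 ± 105). The table gives Krt7 a length of 7049 bases, against 4094 for its reference transcript, and with reference transcript lengths its level at 0 h was 1153 ± 377 TPM, above Krt14 (839 ± 199), and Krt19 (15550 ± 4133) came before Krt18 (14150 ± 2005).

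**Figure D3:**
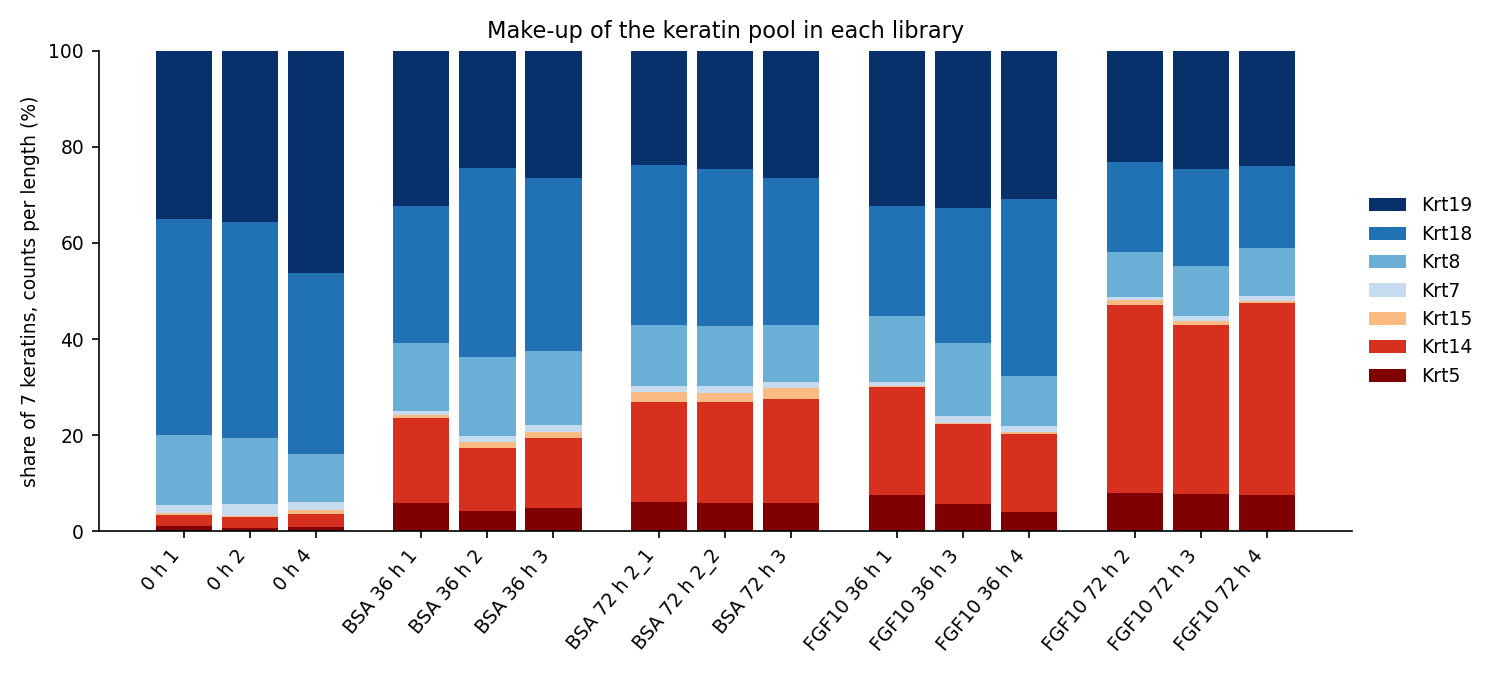
Share of each of the 7 keratins in their summed counts per length (%), 1 bar a library. The red and orange parts (Krt5, Krt14, Krt15) grow from 3.20% to 4.34% at 0 h to 43.8% to 48.0% at FGF10 72 h, and most of this is Krt14 (38.1% of the pool at FGF10 72 h).

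As a share of the summed 7 keratins per length, the 3 basal keratins made up 3.77% ± 0.57 (SD, n = 3) at 0 h, 21.1% ± 2.81 in BSA 36 h, 29.2% ± 0.50 in BSA 72 h, 24.4% ± 5.07 in FGF10 36 h and 46.6% ± 2.40 in FGF10 72 h. The ranges of the 2 groups at 36 h overlapped, and those at 72 h did not (28.8% to 29.8% with BSA, 43.8% to 48.0% with FGF10). Krt14 alone was 2.40% ± 0.34 of the pool at 0 h and 38.1% ± 2.53 at FGF10 72 h. Krt18 went from 42.4% ± 4.13 to 18.6% ± 1.56 between the same groups and Krt19 from 39.1% ± 6.31 to 23.9% ± 0.74. Since these are shares of one sum, a gain of one keratin lowers the others.

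Ratios between keratins were taken per length within each library. Krt5 over Krt14 was 0.362 at 0 h (mean log2 ratio -1.47 ± 0.33 SD, n = 3), 0.281 in BSA 72 h (-1.83 ± 0.04) and 0.205 in FGF10 72 h (-2.29 ± 0.11), with no overlap between the 72 h groups. At 36 h it was 0.327 with BSA and 0.305 with FGF10, which overlapped (exact two-sided permutation p = 0.8). Krt8 over Krt18 was 0.299 at 0 h (-1.74 ± 0.15), 0.384 in BSA 72 h (-1.38 ± 0.02) and 0.533 in FGF10 72 h (-0.91 ± 0.13), again with no overlap at 72 h. At 36 h it was 0.443 with BSA and 0.4505 with FGF10, which overlapped (exact two-sided permutation p = 1.0). The summed type II over the summed type I keratins varied less, from 0.184 at 0 h to 0.274 in BSA 36 h. Krt15 over Krt14 was 0.193 at 0 h, 0.063 in BSA 36 h, 0.0983 in BSA 72 h, 0.0145 in FGF10 36 h and 0.0182 in FGF10 72 h, with no overlap between FGF10 and BSA at either time. Krt19 over Krt18 was 0.776 in BSA 72 h and 1.29 in FGF10 72 h, also with no overlap. Each of the ratios between 2 genes that did not overlap between FGF10 and BSA had an exact two-sided permutation p of 0.1, the smallest that 3 against 3 allows (adjusted p = 0.167 over 10 comparisons), so no ratio passed a test.

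**Figure D4:**
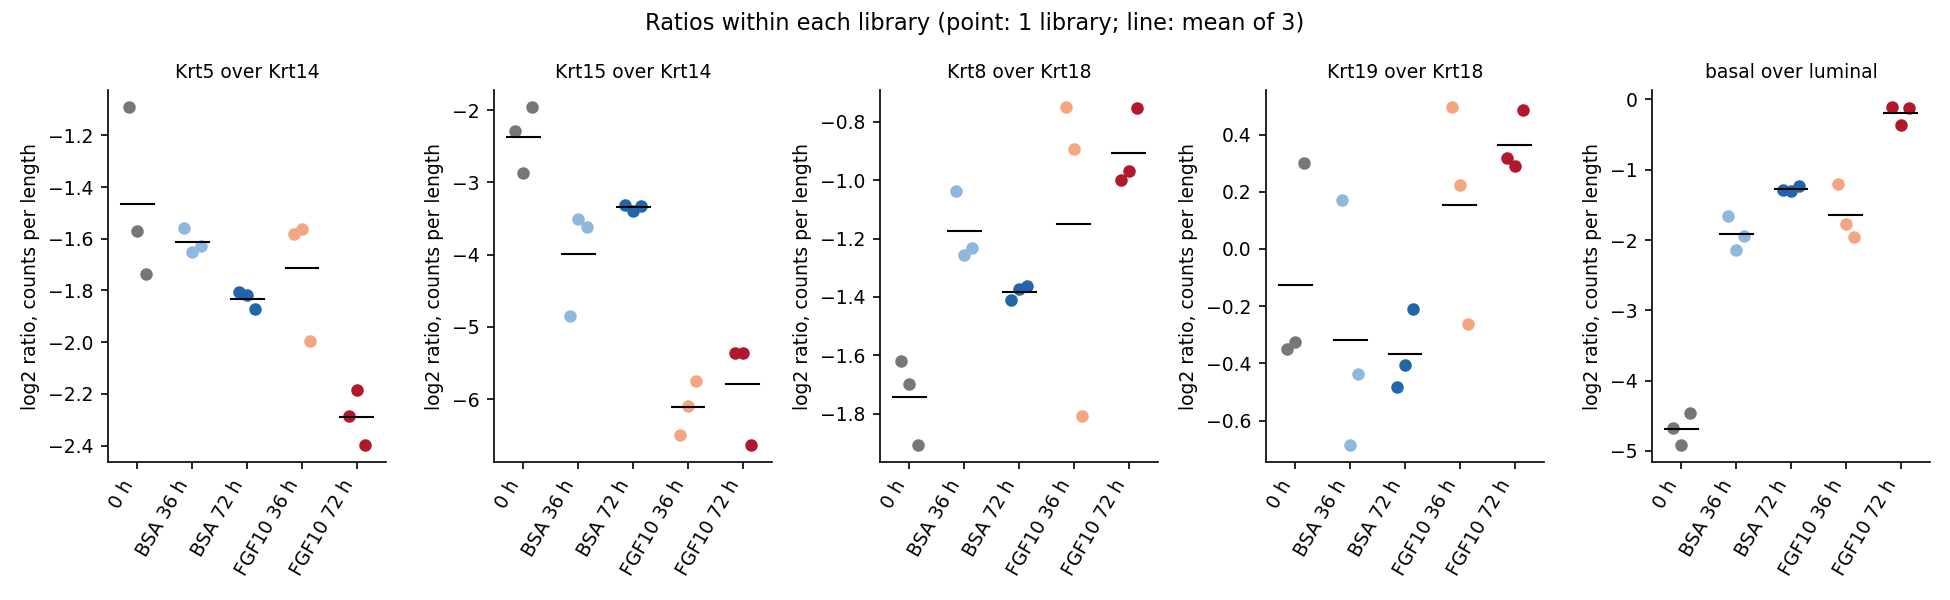
Log2 ratio of counts per length within each library, for 4 keratin pairs and for the 3 basal over the 4 luminal keratins; points are libraries and lines are means of 3. Krt15 over Krt14 lies below -5 in all 6 FGF10 libraries and above it in all others, and basal over luminal lies near 0 at FGF10 72 h.

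The type II keratin Krt5 and the type I keratin Krt14 share coding sequence with keratins that also differed between groups, and fragments that fit more than 1 gene were not counted. Of the windows of 50 bases in the reference transcript (GENCODE M21), an exact copy in another gene was found for 12.2% in Krt5 (Krt6a, Krt6b and 3 further genes) and for 14.4% in Krt14 (Krt16 and Krt17). It was 29.7% in Krt8, where the copies lie in the pseudogenes Krt8-ps and Gm36026, and at most 0.72% in Krt15, Krt7, Krt18 and Krt19. For windows of 100 bases it was lower, at 3.81% in Krt5, 2.88% in Krt14 and 17.1% in Krt8. The longest run that Krt14 shares is shown as an example, and it is only part of the sequence open to this. It begins at coding base 306 of Krt14 (134 bases, to base 439), in a stretch that reaches into the start of the rod, the part of a keratin that winds into the filament.
Krt14 and Krt16: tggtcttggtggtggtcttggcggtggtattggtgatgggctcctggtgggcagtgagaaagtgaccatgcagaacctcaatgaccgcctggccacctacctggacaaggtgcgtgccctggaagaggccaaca

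Krt6a, chosen for that shared sequence, is a keratin of wounded and hyperproliferative epithelium, and its counts were 0.331% to 1.33% of those of Krt5 at 0 h, 3.0% to 5.96% with BSA and 5.72% to 17.1% with FGF10. Krt17, a keratin of the same setting, had 17.5% to 72.1% of the counts of Krt14 over the 15 libraries, and Krt16 at most 1.09%. Krt8-ps had 29.0% to 37.6% of the counts of Krt8 in every library. Its FGF10 minus BSA difference at 72 h was 0.54 ± 0.22 (adjusted p = 0.149), beside 0.54 ± 0.23 for Krt8, and whether its counts came from Krt8 transcripts was not tested. With the counts of these genes added to Krt5, Krt14 and Krt8, a setting chosen after the data were seen, the same number of keratins passed in every comparison except FGF10 against BSA at 36 h, where Krt5 passed (0.64, adjusted p = 0.0351).

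Over the 15 libraries, the gene most like Krt5 in log2 CPM among 11203 genes was Krt14 (Pearson r = 0.984), and the gene most like Krt14 was Krt5. Over the 12 libraries after 0 h their r was 0.969. Next to Krt5 came Pkp1, a plakophilin of desmosomes (0.975, and 0.919 over the 12), and Rdh10, a retinol dehydrogenase (0.974 and 0.878). Next to Krt14 came Perp, a desmosome membrane protein (0.975 and 0.924), and Ppp1r14c, an inhibitor of a protein phosphatase (0.969 and 0.938). Krt15 was unlike both, with r = 0.01 to Krt5 and 0.09 to Krt14, and was closest to Krt71, a keratin of the hair follicle (0.925 and 0.943), Npr2 (0.91 and 0.93) and Klhdc1 (0.908 and 0.917). Krt7 and Krt18 were among each other's closest 2 (0.939 and 0.842), with Cnn3 (0.946 and 0.871) and Gipc2 (0.938 and 0.786) beside Krt7, and Gipc2 (0.938 and 0.838) and Enho (0.936 and 0.875) beside Krt18. The closest to Krt8 were Fam25c (0.872 and 0.872), St3gal5 (0.858 and 0.78) and Dmpk (0.85 and 0.87), and those to Krt19 were Tpm2 (0.938 and 0.853), Adss (0.923 and 0.837) and H3f3b (0.919 and 0.829). Krt19 had r = -0.47 with Krt5 over all libraries and 0.64 over the 12 later ones. The points share libraries and the large step between 0 h and later times, so these values describe the pattern only.

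Of 20 further basal and myoepithelial genes, 5 rose and 7 fell from 0 h to FGF10 72 h (29.9% of all genes called). From 0 h to BSA 72 h 1 rose and 6 fell (25.2%). The medians of the 20 were -0.23 and -0.41 (log2), beside 1.86 or more for the basal keratins. In FGF10 72 h the 5 that rose were Itgb4 (1.26, edgeR adjusted p = 1.91e-05), Id4 (1.59), Nrg1 (1.33), Jag2 (0.52) and Lgr5 (1.61). The 7 that fell were Acta2, Myh11, Mylk, Cnn1, Tagln, Actg2 and Oxtr. Myh11, the smooth muscle myosin of myoepithelial cells, fell from 293 ± 7.72 CPM at 0 h to 47.3 ± 6.50 CPM at FGF10 72 h (SD, n = 3; log2 difference -2.63 ± 0.19 SE, adjusted p = 2.89e-07). Acta2, smooth muscle actin and the gene of this list with the highest level, stood at 10490 ± 2548 CPM at 0 h and 4027 ± 1133 CPM at FGF10 72 h. Trp63, the transcription factor of the basal lineage, stood at 48.2 ± 4.77 CPM at 0 h and 64.2 ± 7.37 CPM at FGF10 72 h. It did not pass the edgeR test against 0 h (log2 difference 0.41, adjusted p = 0.0642) or against BSA at 72 h (0.16, adjusted p = 0.586). Against BSA at 72 h, 3 of the 20 were higher and 3 lower (5.99% of all genes called). Id4, a transcriptional inhibitor of basal cells, rose 4.01-fold (adjusted p = 0.00819), while Mylk, a myosin kinase (-1.44 ± 0.31, adjusted p = 0.0193), and Myh11 (-0.83 ± 0.18, adjusted p = 0.0189) fell. At 36 h, 3 were higher and 1 lower (2.34% of all genes called), with Id4 (2.17 ± 0.35, adjusted p = 0.00776) and Actg2, the smooth muscle gamma actin (1.17 ± 0.24, adjusted p = 0.0205), among the higher.

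Of 22 further luminal genes, 2 rose and 10 fell from 0 h to FGF10 72 h, and 2 rose and 9 fell from 0 h to BSA 72 h (29.9% and 25.2% of all genes called). Their medians were -0.94 and -0.64, beside -1.02 and -1.44 for the luminal keratins. Their summed level nonetheless was 21620 to 27990 CPM at FGF10 72 h and 13760 to 19990 CPM at 0 h, since Wfdc18, a secreted protein of the luminal list, stood at 17790 ± 3364 CPM at FGF10 72 h and 2259 ± 322 CPM at 0 h. Against BSA edgeR called none of the 22 at 36 h. There 4 had an unadjusted p under 0.05 (2 higher and 2 lower), beside 3398 of all 18140 tested genes. At 72 h 1 of the 22 fell, Elf3, an epithelial ETS factor (-0.94 ± 0.18, adjusted p = 0.00944).

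Of 13 genes whose products tie keratin filaments to junctions or regulate them, 2 were higher beside FGF10 at 36 h (2.34% of all genes called) and 3 at 72 h (5.99%). None was lower by edgeR, also at an unadjusted p under 0.05. They were Sfn, the keratin-binding 14-3-3 sigma (1.08 ± 0.23, adjusted p = 0.0233, and 1.04 ± 0.23, adjusted p = 0.0176), Ppl, periplakin (0.70 ± 0.17 at 36 h, adjusted p = 0.0426), and at 72 h Pkp1 (0.86 ± 0.15, adjusted p = 0.00558) and Pkp3 (0.45 ± 0.12, adjusted p = 0.0396), both plakophilins. Of 17 epithelial transcription factors, Klf5 was higher at 36 h (0.48 ± 0.11, adjusted p = 0.0394) and Elf3 lower at 72 h. Of the other 47 keratin rows, 19 were tested, and beside FGF10 at 72 h 6 were higher and 1 lower than with BSA (5.99% of all genes called), with a median of 1.32. Krt16 (2.56 ± 0.27, adjusted p = 0.000593), Krt17 (1.87 ± 0.29, adjusted p = 0.00332), Krt6b (2.95 ± 0.47, adjusted p = 0.00406) and Krt79 (1.93 ± 0.34, adjusted p = 0.00819) were among the higher. Krt16 and Krt17 are stress keratins, as is Krt6b. Some of these keratins share coding sequence with Krt5 and Krt14, as given above.

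**Figure D5:**
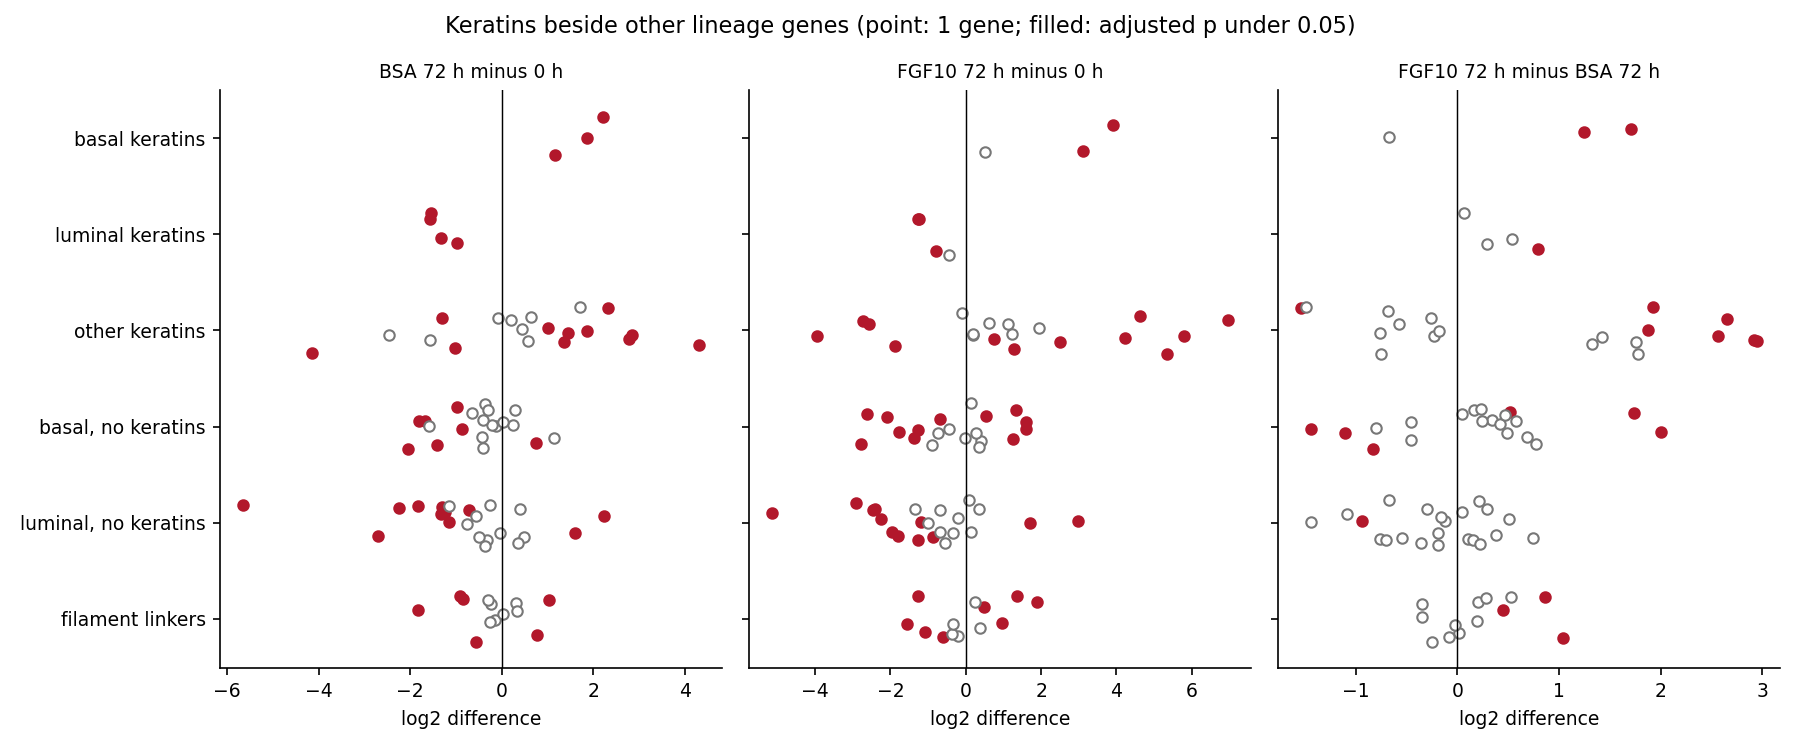
Log2 difference of each tested gene of 6 groups in 3 comparisons; points are genes, shifted at random up or down within a row, and filled points passed an adjusted p of 0.05. Basal keratins lie to the right of 0 against 0 h while the other basal genes lie on both sides, and Krt15 is the basal keratin left of 0 for FGF10 minus BSA.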

How the data were processed

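RNA of 15 libraries in 5 groups of 3 was sequenced. The authors deposited 1 table of raw fragment counts per gene together with the exon length of each gene. Per the file headers, featureCounts 2.0.1 assigned read pairs to the exons of each gene name and did not count a fragment with more than one match, to the genome or to genes. Strand was not used in counting although the kit preserves it, so reads of antisense genes could not be separated. The submitters' processing notes name FastQC, cutadapt 1.9.1, HISAT2 2.2.1, HTSeq, DESeq2 and the assembly GRCm39. The headers were followed where HTSeq and featureCounts differ. FGF0 in the titles of the FGF10 72 h libraries was read by the treatment label.

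Low counts were removed by filterByExpr (at least 10 counts, 15 in total), which kept 18140 of 54456 genes, and libraries were scaled by TMM. All 5 groups entered 1 fit with edgeR 4.0.16 (R 4.3.3), using its robust quasi-likelihood test for 9 contrasts. A call is an adjusted p (Benjamini-Hochberg, all tested genes) under 0.05, and the SE was taken as the log2 difference divided by the root of the F statistic. The code of the group tests was tried on simulated counts with known changes, for FGF10 72 h against BSA 72 h only. Alternatives were other scalings and filters, a replicate block, BSA 72 h libraries 2_1 and 2_2 summed, fewer groups in the fit, limma 3.58.1 with voom, DESeq2 1.42.0 and leaving out each library. Deviations of libraries with the same number in different groups had correlations of -0.158 to 0.449 over 21 pairs, 9 of them over 0.1. For different numbers they were -0.293 to 0.202 over 69 pairs, 10 of them over 0.1. The labels do not state that the numbers pair the libraries, so the main fit did not pair them and the replicate block was an alternative. The keratins and gene lists were chosen with earlier results of these data known. Beside the keratins, the text names up to 4 called members of a list by adjusted p for FGF10 against BSA, members of highest level, and the 3 genes most similar to each keratin (at least 5 CPM in a group, no predicted genes or pseudogenes). Epcam, Trp63 and the genes that share sequence with the keratins were named outside this rule, after their values were seen. So were the basal genes called in FGF10 72 h against 0 h.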

Additional observations from a re-analysis of the deposited data

How the results depend on the processing

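Of the log2 differences of the 7 keratins in 9 comparisons, recomputed under every alternative, 1518 kept direction and call, 44 lost the call, 29 gained it and 19 changed sign, the last all of differences that had not passed. For FGF10 against BSA at 36 h edgeR called 0 keratins, but 1 without the 0 h libraries, 1 with counts of genes that share sequence added (chosen after the data were seen), 3 with limma voom, 4 with DESeq2 and 0 to 2 on leaving out a library. At 72 h it called 3, but 2 with BSA 2_1 and 2_2 summed and 2 to 3 on leaving out a library. With limma voom, or with only these groups in the fit, 4 were called at 72 h. The change between times gave 0, or 2 with DESeq2. BSA 36 h against 0 h gave 5, or 4 with only these groups in the fit and 4 to 5 on leaving out a library. FGF10 36 h against 0 h gave 6, or 3 with only these groups in the fit and 2 to 6 on leaving out a library. BSA 72 h against BSA 36 h gave 0, or 2 with limma voom. FGF10 72 h against FGF10 36 h gave 2, or 1 to 3 on leaving out a library. With a replicate block the counts for FGF10 against BSA were 0 at 36 h and 3 at 72 h, as without it, and Krt15 in BSA 72 h against 0 h lost its call (adjusted p = 0.172). Signs changed with limma voom for the FGF10 minus BSA difference at 36 h of Krt7 (-0.09002) and Krt18 (-0.28), for the change of Krt18 (0.34) and for Krt7 in FGF10 72 h against 36 h (0.0002394), and without scaling factors for Krt18 at 72 h (-0.10) and the change of Krt7 (-0.11). On leaving out a library the values spanned 0, from -0.11 to 0.29 for Krt8 and -0.24 to 0.35 for Krt18 at 36 h, from -0.21 to 0.29 for the change of Krt7, from -0.28 to 0.30 for that of Krt18 and from -0.004832 to 0.07001 for Krt5 in BSA 72 h against 36 h. Calls for FGF10 against BSA over all genes were 425 at 36 h (78 with only these groups, 1460 with limma voom, 127 to 852 on leaving out a library) and 1087 at 72 h (277 with BSA 2_1 and 2_2 summed, 5025 with only these groups, 148 to 1950). They were 85 for BSA 72 h against 36 h (0 to 2683) and 346 for FGF10 72 h against 36 h (99 to 862). Without scaling factors the median of all genes moved to -0.173 for FGF10 against BSA at 72 h, and the share of calls that were higher went from 50.2% to 19.3% there and from 40.7% to 30.6% at 36 h, from 47% to 62.1% and 48.4% to 70.7% for BSA 36 h and 72 h against 0 h, and from 69.4% to 82.8% for BSA 72 h against 36 h.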

Other observations

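Genes of squamous differentiation other than keratins, 14 of 20 of them tested, were also called in both directions beside FGF10. At 36 h 3 were higher and 4 lower than with BSA (2.34% of all genes called), and at 72 h 4 were higher and 2 lower (5.99%). The desmosomal cadherins Dsg3 (log2 difference 1.33 ± 0.24 SE at 36 h, adjusted p = 0.0105, and 2.05 ± 0.24 at 72 h, adjusted p = 0.00061, edgeR) and Dsc3 (1.45 ± 0.31, adjusted p = 0.0259, and 1.91 ± 0.30, adjusted p = 0.00391) rose. Lor, loricrin of the cornified envelope, fell (-3.68 ± 0.64, adjusted p = 0.0112, and -2.63 ± 0.54, adjusted p = 0.0166). Against 0 h, 11 of the 14 rose and 2 fell in FGF10 72 h (29.9% of all genes called), and 10 rose and 1 fell in BSA 72 h (25.2%).

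The libraries numbered 1 at 36 h had the lowest luminal keratins of their group in both arms. With BSA the library numbered 1 had Krt7 at 648, Krt8 at 2489, Krt18 at 3747 and Krt19 at 5449 CPM, and with FGF10 it had 835.5, 3363, 4154 and 7559 CPM. Their deviations from the group means over all genes had a correlation of 0.449, the highest of 21 pairs with the same number. Markers of mesothelial, Schwann and muscle cells gave no call for FGF10 against BSA by edgeR (4, 5 and 4 genes tested). At an unadjusted p under 0.05 there were 1 mesothelial gene higher and 1 Schwann gene lower at 36 h, and 2 mesothelial genes higher and 1 lower at 72 h. Of all 18140 tested genes, 3398 at 36 h and 4257 at 72 h had such a p.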
